A study of Homo sapiens with 12 samples.

Results

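The 10 keratin genes described here are KRT5, KRT14, KRT15, KRT6A, KRT6B, KRT16, KRT17, KRT18, KRT75 and KRT80, read in 6 peak lists of N4-acetylcytidine (ac4C) on mRNA. A gene belonged to the set by its symbol in the lists, and a gene absent from a list was given 0 peaks there. Of the 10 genes, 9 had a peak in at least 1 list, out of 10870 genes listed at least once, and they held 27 of 61804 peaks. KRT75 was chosen by its peak numbers in the 6 lists, which were above 0 in overexpression lists alone, so its pattern across the groups is a description that carries no test.

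The cells were HaCaT, an established line of human keratinocytes, and their total RNA was the starting material of the libraries. NAT10 overexpression cells (3 replicates) carried plasmids that overexpress NAT10, the acetyltransferase that places ac4C on RNA, and vector control cells (3 replicates) carried the empty vector. Each replicate gave an immunoprecipitated (IP) and an input library, 12 libraries in all, and 1 peak list, named below as NAT10 replicates 1 to 3 and vector replicates 1 to 3. The labels give no dose, no time after plasmid delivery and no word on whether replicates were separate cultures, so any p-value over lists measures a spread that may be technical.

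Keratins are the intermediate filament proteins of epithelial cells. A filament is built from pairs of a type I (acidic) and a type II (basic) chain, and the pair in use marks the state of the cell: KRT5 with KRT14 in the basal layer of the epidermis, KRT6 and KRT16 or KRT17 in wounded or activated skin, and KRT8 with KRT18 in simple epithelia. KRT75 is a type II keratin of the hair follicle's companion layer and of the nail bed. In the assay used here an antibody to ac4C pulls down RNA fragments, and a peak is a stretch where the IP exceeds its background. Each peak has a fold, the linear ratio of IP over background, and a score, which is 10 times −log10 of the p-value that the authors obtained. A gene without a peak can still be transcribed, since the lists hold no expression levels, and a difference in peaks cannot be told apart here from one in the amount of RNA or in read depth.

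The lists differed widely in length, with 12157, 12119 and 3105 peaks in NAT10 replicates 1, 2 and 3, against 4324, 19261 and 10838 in vector replicates 1, 2 and 3. They named 5798, 5949 and 2306 genes in the overexpression lists, against 3137, 7919 and 5956 in the control lists. Their median folds lay between 6.30 and 7.20 in the overexpression lists and between 6.59 and 7.22 in the control lists. Read depth is unknown. The lowest false discovery rate of any peak, read as percent, was 29.28, so no single peak passes a usual rate. NAT10 itself had 14, 14 and 15 peaks in the overexpression lists, against 1, 2 and 2 in the control lists. Keratinocyte markers had a peak for 11 of 12 genes, with 8, 9 and 3 genes in the overexpression lists against 6, 11 and 9 in the control lists. Of 7 melanocyte markers 3 had a peak (2, 1 and 0 genes in the overexpression lists, 0, 1 and 0 in the control lists), and of 7 fibroblast markers 2 had one (1, 0 and 1, against 0, 0 and 0). The melanocyte markers with a peak were MITF, SOX10 and PMEL. MITF had folds of 5.56 and 26.45 in NAT10 replicates 1 and 2. SOX10 had 18.26 in NAT10 replicate 1, and PMEL had 3.83 in vector replicate 2. The fibroblast markers COL1A1 and PDGFRB had folds of 7.15 and 14.41 in NAT10 replicates 1 and 3. The other melanocyte markers, TYR, TYRP1, DCT and MLANA, had no peak in any list. Nor had the other fibroblast markers, COL1A2, COL3A1, PDGFRA, LUM and DCN. The part of other cell types in the keratin peaks was not tested.

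The sequences upstream of KRT75 and KRT5 are shown, since these are the 2 of the 9 genes for which the sequence table used here had an entry. The KRT75 peaks lie inside the gene near its start, and the KRT5 peaks cross the start. Both genes lie on the minus strand of chromosome 12 in RefSeq (GRCh38.p14), and each sequence is the 250 bases before the annotated start, 5′ to 3′. KRT75 covers chr12:52424070-52434371 and the bases shown are chr12:52434372-52434621. KRT5 covers chr12:52514575-52520394 and the bases shown are chr12:52520395-52520644. Capitals mark the 103 bases inside the KRT5 peak of NAT10 replicate 1, and no base upstream of KRT75 lay in a peak.
KRT75: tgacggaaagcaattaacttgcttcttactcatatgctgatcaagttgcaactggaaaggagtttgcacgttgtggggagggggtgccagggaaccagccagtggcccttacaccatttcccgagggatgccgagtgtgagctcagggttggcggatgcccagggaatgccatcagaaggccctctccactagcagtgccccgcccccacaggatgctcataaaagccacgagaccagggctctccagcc
KRT5: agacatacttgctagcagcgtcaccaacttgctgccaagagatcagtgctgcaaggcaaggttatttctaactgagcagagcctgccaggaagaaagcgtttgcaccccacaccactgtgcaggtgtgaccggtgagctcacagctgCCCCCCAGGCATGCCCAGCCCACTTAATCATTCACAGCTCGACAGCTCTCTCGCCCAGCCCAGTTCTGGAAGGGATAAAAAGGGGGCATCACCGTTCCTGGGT
The letters ATAAAA, searched on both strands, stand 31 bases before the KRT75 start and 29 bases before the KRT5 start on the strand of the gene. Of 35116 windows of this length in the RefSeq table, 14.8% hold these letters on either strand, and 2.26% hold them on the gene's strand within the last 50 bases.

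KRT75 was listed once in each overexpression list and in no control list. Its fold was 3.61, 2.23 and 5.07 in NAT10 replicates 1, 2 and 3, and its score was 1077.61, 158.68 and 334.52. The 3 peaks lay at the same place, at 52433836-52434097 in replicate 1, 52433836-52434095 in replicate 2 and 52433845-52434095 in replicate 3, with 251 bases in common. They ended 274 to 276 bases inside the gene, counted from its RefSeq start. No control list had a peak under any gene name anywhere in the KRT75 span. The folds were low for their lists, at the 10.6th percentile in replicate 1, the 0.0908th in replicate 2 and the 28.9th in replicate 3, while the scores stood at the 96.9th, 63.7th and 90.1st percentiles. The lowest fold in any list was 2, so the replicate 2 peak was just above that limit. With a fold of at least 4, KRT75 had a peak in NAT10 replicate 3 alone, and with lists shortened to equal length it had a peak in 2 of the 3 overexpression lists.

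A peak in all 3 overexpression lists and in no control list was found for 29 of 10870 genes (0.267%), KRT75 among them. None of the other 9 keratins had this pattern, and none had its mirror image (all 3 control lists, no overexpression list), which 118 genes (1.09%) had. Among the 29 genes, 2 had a position common to all 3 overexpression lists, and KRT75 was one of these. The peak numbers of KRT75 in the 6 lists were matched exactly by 12 genes. By the summed difference in log2 fold over the 3 overexpression lists, the most alike were COQ10B (folds 3.42, 4.33 and 5.01 in NAT10 replicates 1 to 3), TMEM219 (3.74, 3.83 and 3.97), ZDHHC5 (3.11, 6.23 and 3.64), NEK8 (4.04, 7.75 and 6.28) and DIS3 (4.81, 3.91 and 11.51). In none of these 5 did the 3 peaks share a position.

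**Figure D1:**
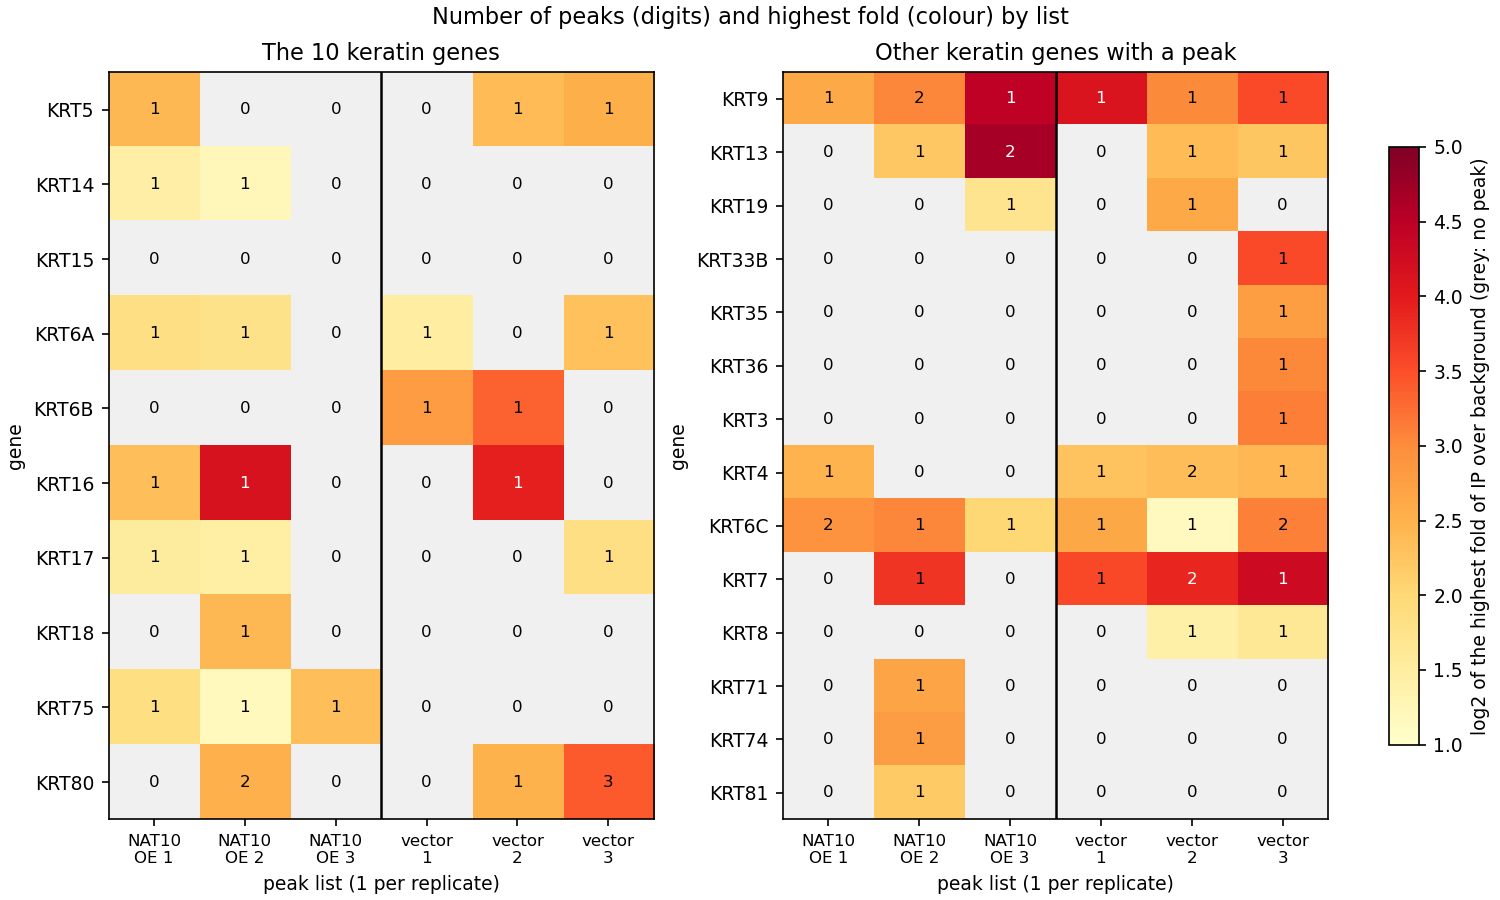
Number of peaks (digits) and log2 of the highest fold of IP over background (colour; grey where there is no peak) for each gene (rows) in each peak list (columns), NAT10 overexpression (OE) left of the line and vector control right of it. The left panel holds the 10 keratin genes and the right panel the other 14 keratin genes with a peak. KRT75 has 1 peak in each overexpression list and 0 in each control list, and KRT15 has 0 throughout.

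Of the 9 keratins with a peak, KRT14, KRT16, KRT17, KRT18 and KRT75 were listed in more overexpression than control lists, against 25.6% of all genes with a peak. KRT5, KRT6B and KRT80 were listed in more control lists, against 46.3% of all genes, and KRT6A in equally many, against 28.1%. The set was chosen with these values known, so the counts describe it and give no support to a shift. The exact two-sided permutation test of peaks per gene over the 20 divisions of 6 lists called 0 of 10870 genes after Benjamini-Hochberg adjustment and 0 at an unadjusted p under 0.05, since its smallest possible p is 0.1. NAT10 replicate 3, the shortest list, held 1 peak on the 10 genes, that of KRT75. The other overexpression lists held 6 and 8, and the control lists held 2, 4 and 6.

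The basal pair was KRT5 and KRT14, the chains that make up the filament network of dividing keratinocytes. KRT5 had a peak in NAT10 replicate 1 with a fold of 5.32, and in vector replicates 2 and 3 with folds of 5.24 and 5.82. The scores were 938.47 in NAT10 replicate 1, against 1007.35 and 2677.81 in the 2 control lists, all near the top of their lists. The 3 peaks began at the same base, 52519742, and ended at 52520497 in the overexpression list, 52520499 in vector replicate 2 and 52520687 in vector replicate 3. They passed the RefSeq start by 103, 105 and 293 bases in that order, so the vector replicate 3 peak covered the whole upstream sequence printed for KRT5. The folds of both groups lay within 5.24 to 5.82.

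KRT14 had a peak at chr17:41586310-41586921 in NAT10 replicates 1 and 2, with folds of 2.70 and 2.31 and scores of 203.56 and 84.89, and none in NAT10 replicate 3 or in any control list. Both peaks had the same ends and reached 26 bases past the upper end of the RefSeq span (41582279-41586895). Both folds were among the lowest of their lists, and with a fold of at least 4, or with lists of equal length, KRT14 had no peak. KRT5 and KRT14 were found together in NAT10 replicate 1 only. KRT15, a type I keratin of basal cells and hair follicle stem cells, had no peak in any list, and no peak of another name lay in its span.

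KRT6A, KRT6B, KRT16 and KRT17 are keratins of activated, wounded or hyperproliferative epidermis. KRT6A had 1 peak of 609 bases, chr12:52492649-52493257, with the same ends in 4 lists and its upper end at the upper end of the gene span. Its fold was 3.58 and 3.40 in NAT10 replicates 1 and 2, against 2.80 and 4.94 in vector replicates 1 and 3. Its score was 455.29 and 254.97 in those overexpression lists, against 206.43 and 1786.92 in those control lists. The overexpression folds lay between the 2 control folds, and 1 list of each group had no KRT6A peak.

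KRT6B had a short peak of 126 bases, chr12:52448842-52448967, in vector replicates 1 and 2 with folds of 6.90 and 10.11, and none in the overexpression lists. Its scores of 65.58 and 107.47 were below the median of their lists. KRT6A, KRT6B and KRT6C are near-identical copies, as are parts of KRT14, KRT16 and KRT17, and the sources used here do not say how reads that fit several copies were placed, so the split of peaks among these genes is uncertain.

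KRT16 had 3 peaks at 3 places that did not overlap. NAT10 replicate 1 had chr17:41611069-41611230 with a fold of 5.07, NAT10 replicate 2 had chr17:41609778-41610029 with a fold of 17.79, and vector replicate 2 had chr17:41610331-41610456 with a fold of 15.41. The last 2 were the highest folds on any of the 10 genes, 1 in each group. KRT17 had 1 peak of 500 bases, chr17:41624078-41624577, with the same ends in 3 lists, with folds of 2.87 and 2.72 in NAT10 replicates 1 and 2, against 3.57 in vector replicate 3. Its scores were 125.74 and 60.27, against 97.18. KRT6A and KRT17 were listed together in 3 lists, NAT10 replicates 1 and 2 and vector replicate 3.

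**Figure D2:**
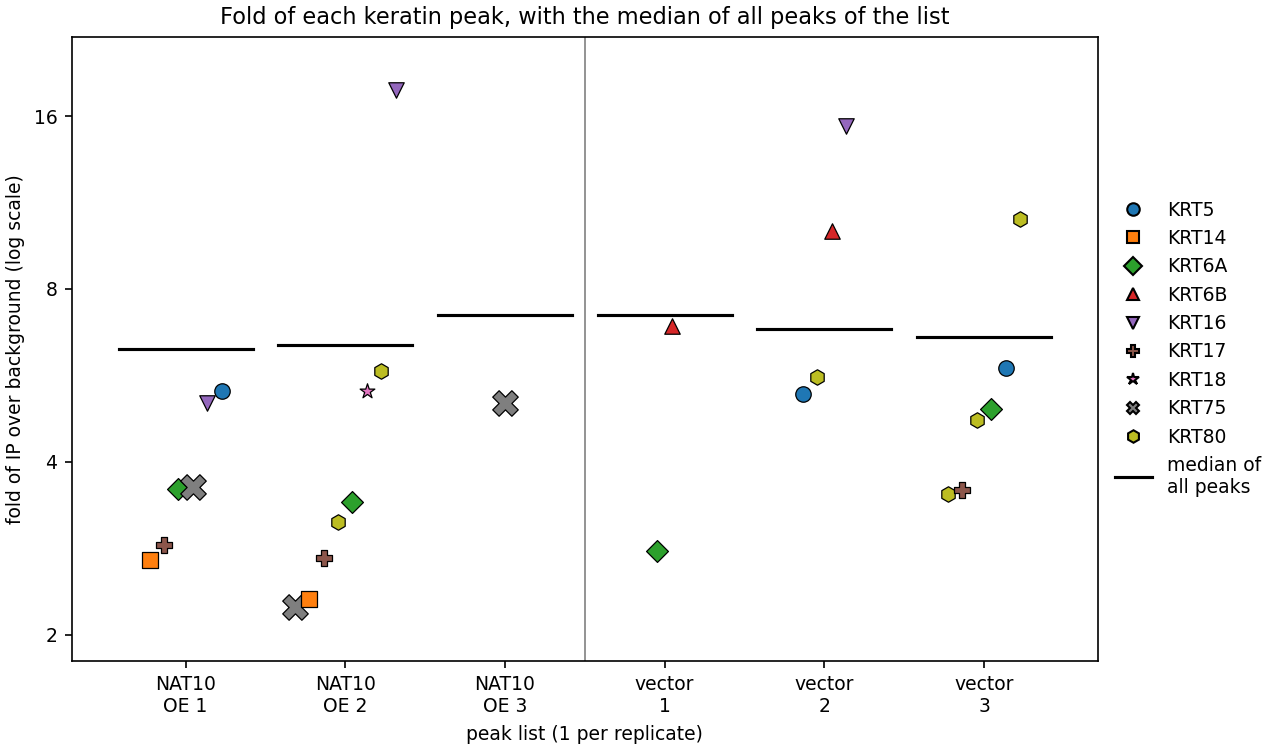
Fold of IP over background (log axis) of each of the 27 peaks on the 10 keratin genes, by peak list, NAT10 overexpression (OE) left of vector control. Symbols are genes, and the black line is the median fold of all peaks of that list. Only 4 of the 27 peaks, on KRT16, KRT6B and KRT80, lie above their line, and the 3 KRT75 peaks lie below it.

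KRT18, the type I keratin of simple epithelia, had 1 peak of 621 bases, chr12:52948970-52949590, in NAT10 replicate 2, with a fold of 5.32 and a score of 1183.93. The peak also lies in the RefSeq span of its neighbour KRT8 (52897191-52949860), and the lists give no strand. KRT8, its type II partner, had a peak at 52904658-52905079 in vector replicates 2 and 3 with folds of 2.66 and 3.06, and none in the overexpression lists. The partners therefore shared no list.

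KRT80, a type II keratin of differentiating epithelia, had 3 positions and 6 peaks, the most of the 10 genes. The position next to the upper end of its span, chr12:52191603-52192000, had a fold of 5.76 in NAT10 replicate 2, against 10.59 in vector replicate 3. The position 52172198-52172418 had a fold of 3.14 and 4.72 in the same lists, and 52173600-52173764 had folds of 5.61 and 3.51 in vector replicates 2 and 3 and no overexpression peak. Where both lists had a position, the fold was lower in the overexpression list, with 1 list a group and so no test. The mean number of KRT80 peaks per list, overexpression minus control, was -0.667, and turned to 0.167 without vector replicate 3.

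The 27 peaks were long and of low fold. Their median fold was 4.94, against 6.60 over all peaks, and 23 lay below the median of their own list. By contrast 18 had a score above the median of their list, and 22 were longer than its median. The median length was 398 bases, against 180 over all peaks. In percentiles of the own list, the median over the 27 peaks was 25.1 for the fold and 79.9 for the score. The peaks share genes and libraries, so these are descriptions with no test.

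**Figure D3:**
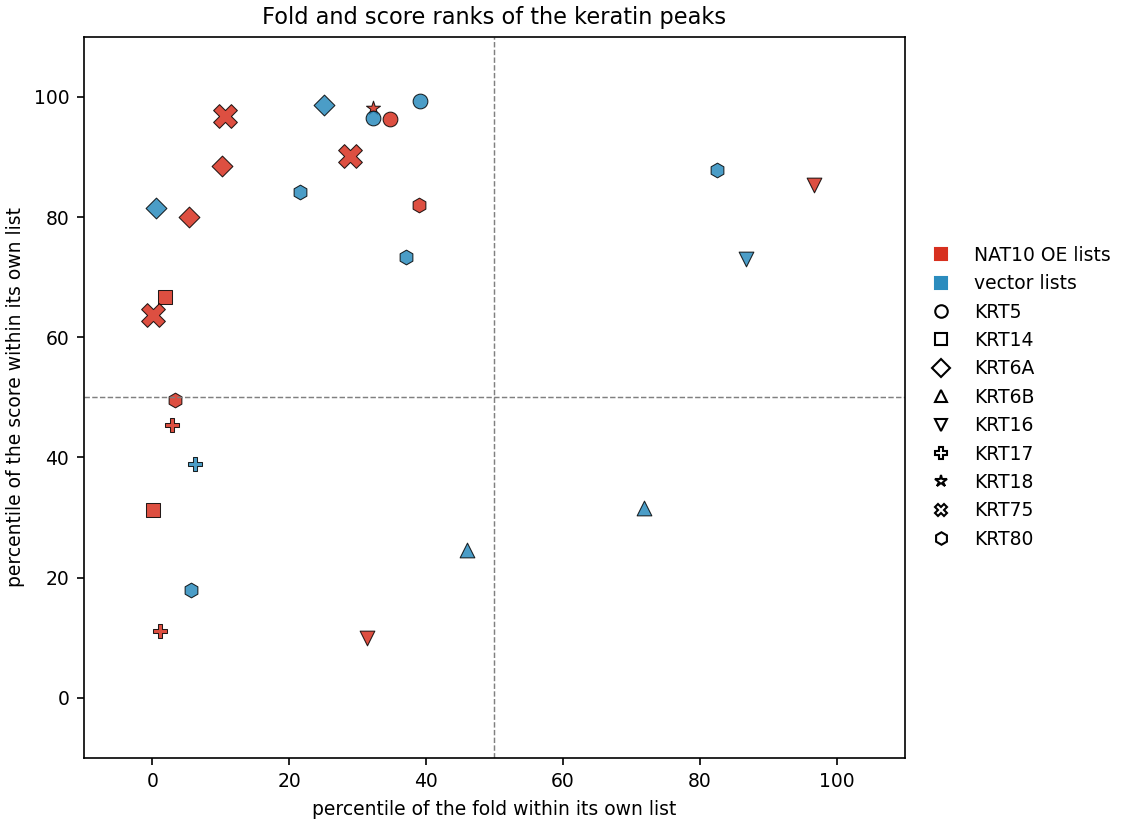
Percentile of the score against percentile of the fold, each within the peak's own list, for the 27 peaks; symbols are genes, red for NAT10 overexpression (OE) lists and blue for vector control lists, and dashed lines mark the 50th percentiles. Most peaks of both groups stand left of the vertical line, and the 3 KRT75 peaks stand at fold percentiles of 10.6, 0.0908 and 28.9.

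The peaks fell at 13 positions, of which 9 were found in 2 or more lists. In 7 of these 9 both ends were the same in every list that had the position, and KRT5 and KRT75 were the exceptions. Both groups shared 5 positions, 5 were in overexpression lists only and 3 in control lists only. The same counts of positions were not made over all genes, so they describe these keratins alone. Of the 27 peaks, 15 (55.6%) reached within 30 bases of an end of the RefSeq span or past it, against 12.1% of the 60594 peaks matched to a span. Keratin genes are short, with a median span of 5496 bases against 35756.5 for all genes with a peak, and among peaks on genes with spans of 2990 to 23019 bases, the range of these keratins, the share was 20.4%. By gene, 6 of the 9 keratins had such a peak, namely KRT5, KRT14, KRT6A, KRT16, KRT17 and KRT80, against 33.4% of genes. KRT75 was not among them.

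**Figure D4:**
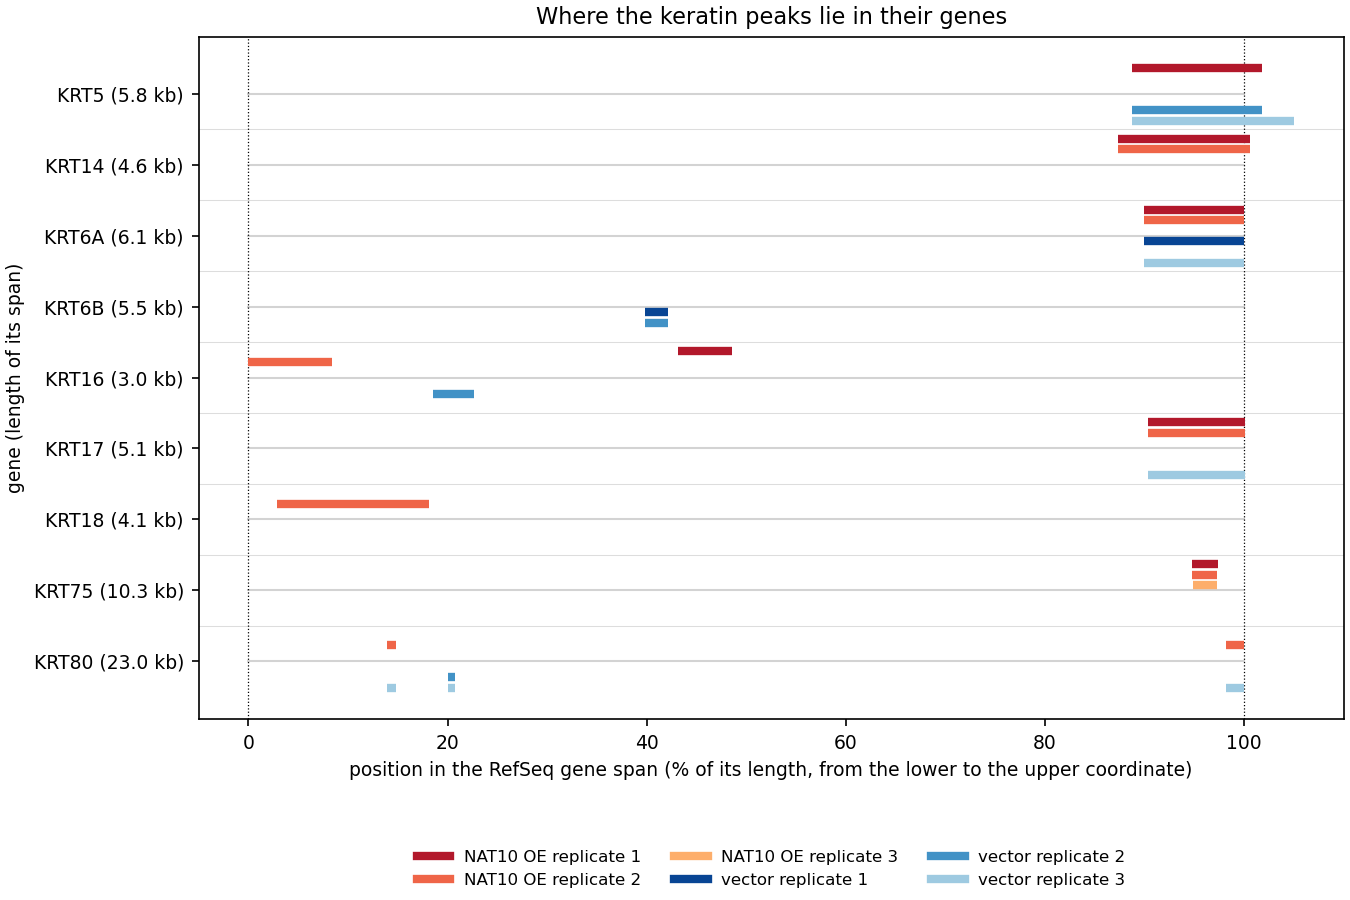
Peaks on the 9 keratin genes with a peak, drawn to scale along each gene's RefSeq span from its lower (0%) to its upper (100%) coordinate; colours are lists, reds for NAT10 overexpression (OE) above blues for vector control, and span lengths are given beside the names. Peaks of KRT5, KRT14, KRT6A and KRT17 lie at the upper end, and the 3 KRT75 peaks lie just short of it.

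Among the other 44 keratin genes 14 had a peak, 3 in more overexpression lists, 7 in more control lists and 4 in equally many, against 25.6%, 46.3% and 28.1% of all genes. KRT71, KRT74 and KRT81, keratins of the hair follicle and hair shaft, each had 1 peak in NAT10 replicate 2, with folds of 6.39, 6.84 and 4.56. The hair keratins KRT33B, KRT35 and KRT36 and the corneal keratin KRT3 each had 1 peak in vector replicate 3, with folds of 11.60, 6.77, 8.22 and 8.70. So each of these 7 rested on a single list, as did 28.6% of all genes.

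KRT9, a keratin of palm and sole skin, and KRT6C, a copy of the KRT6 family, had a peak in all 6 lists, as did 6.23% of all genes and none of the 10. In NAT10 replicates 1 to 3 the highest fold of KRT9 was 6.13, 8.28 and 22.02. In vector replicates 1 to 3 it was 17.16, 8.11 and 11.60. These overexpression peaks overlapped neither each other nor the control peaks, so the folds belong to different positions. At the KRT9 position that both groups had, chr17:41567233-41567750, NAT10 replicate 2 had a fold of 5.17, against the same control folds. KRT6C was at chr12:52473198-52473785 in every overexpression list with folds of 7.55, 8.35 and 4.0, against 8.59 in vector replicate 3. A second KRT6C position had a fold of 2.64 in NAT10 replicate 1 (52472066-52472280), against 2.21 in vector replicate 2 (52472094-52472280) and 6.79 in vector replicate 3 (52472066-52472280). A further one, 52468959-52469297, was in vector replicate 1 alone with a fold of 6.20. KRT7, a type II keratin of simple epithelia, was at chr12:52233114-52233620 with a fold of 13.39 in NAT10 replicate 2, against 11.81, 11.29 and 19.63 in vector replicates 1 to 3. Another KRT7 position, 52235155-52235366, was in vector replicate 2 alone with a fold of 14.79.

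KRT4 and KRT13 are the pair of the inner linings such as the mouth. KRT13 was at chr17:41505056-41505613 with a fold of 25.53 in NAT10 replicate 3, against 5.22 and 4.74 in vector replicates 2 and 3. At a further position it had folds of 4.67 (chr17:41502230-41502594) and 9.87 (chr17:41502225-41502594) in NAT10 replicates 2 and 3. KRT4 was at chr12:52808686-52808850 with a fold of 5.56 in NAT10 replicate 1, against 4.83 in vector replicate 1. Vector replicate 2 had 5.08 at the same position (52808686-52808822). At a further KRT4 position, vector replicates 2 and 3 had folds of 3.87 (52813913-52814178) and 5.39 (52813597-52814122). No overexpression list had a peak there. KRT19, a type I keratin of simple epithelia, had a fold of 3.29 in NAT10 replicate 3, against 6.11 in vector replicate 2.

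Over all 54 keratin genes, 23 had a peak, with 9, 14 and 5 genes in the overexpression lists against 6, 11 and 14 in the control lists. The same lists named 5798, 5949 and 2306 genes of any kind, against 3137, 7919 and 5956. Of the 23 keratins, 8 had more overexpression than control lists and 10 the reverse, with 5 in equally many. Of 10 type I keratins with a peak, 4 had more overexpression lists and 3 more control lists, and of 13 type II keratins 4 and 7 did so, against 25.6% and 46.3% of all genes. KRT1, KRT2 and KRT10, keratins of the upper epidermis, had no peak.

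The proteins that tie keratins to cell junctions or bundle them had a peak for 15 of 17 genes, 3 in more overexpression lists, 6 in more control lists and 6 in equally many, against 25.6%, 46.3% and 28.1% of all genes. EPPK1 (epiplakin), which binds keratin networks, had highest folds of 34.65, 45.72 and 41.42 in the overexpression lists, against 11.85, 20.63 and 18.57 in the control lists. It was named because it is in all 6 lists, and its highest fold was higher in every overexpression list than in any control list, as for 11 of the 677 genes in all 6 lists (1.62%), while 58 (8.57%) were lower in every overexpression list. EPPK1 had 9, 7 and 7 peaks in the overexpression lists, against 4, 5 and 5 in the control lists. Each of its overexpression maxima was thus taken over more peaks. Whether the highest peaks of a gene lie at the same position in different lists was not examined for these linkers. The difference in fold was not tested. PLEC (plectin), a linker of filaments to hemidesmosomes, had 22.68, 15.96 and 6.16, against 5.55, 20.80 and 16.72. EVPL (envoplakin), of the cornified envelope, had 8.84, 15.52 and 9.78, against 5.72, 20.53 and 10.77. DST (dystonin), another hemidesmosome linker, had 8.70 and 10.49 in NAT10 replicates 1 and 2 and no peak in replicate 3, against 18.72, 45.50 and 12.03. Its folds were thus lower in both overexpression lists with a peak than in any control list, as for 17.4% of the 1166 genes in 2 overexpression and 3 control lists, while 7.46% were higher. DST was named for being in 5 lists and for its highest fold, 45.50, which is that of vector replicate 2. It was thus picked in part through the group where it is high, and the direction gives no support to a difference. For PLEC and EVPL the folds of the groups overlapped.

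Other intermediate filament genes had a peak for 8 of 15, with 0 in more overexpression lists, 5 in more control lists and 3 in equally many, beside the same 25.6%, 46.3% and 28.1% of all genes. The examples in the most lists were the nuclear lamins: LMNB2 had highest folds of 23.21 and 46.91 in NAT10 replicates 1 and 2, against 35.39, 41.35 and 55.38 in the control lists, and LMNA had 6.04 and 7.64, against 6.22, 10.44 and 8.52. LMNB1 had 3.61 and 6.12, against 6.38 and 3.11 in vector replicates 2 and 3, and NEFL, the neurofilament light chain, had 24.62 in NAT10 replicate 1, against 22.72 and 8.78 in vector replicates 2 and 3. None of the 4 had a peak in NAT10 replicate 3, the shortest list.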

How the data were processed

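Acetylated RNA immunoprecipitation sequencing gave 6 deposited peak lists from 12 libraries, and groups and replicate numbers came from the sample titles. The submitters' processing notes name FastQC, the trimmer cutadapt 1.9.3, the aligner HISAT2 2.0.4 and the build GRCh38; peak names hold the caller's name, MACS, of a version not given in the sources used here. The deposited score is, per the file headers, 10 times the negative log10 of the p-value, and the deposited fold is a ratio (linear) of the IP to background. The deposited false discovery rate has no unit in the headers and was read as percent because it runs up to 100. Peaks were called per replicate. Depth is unknown, which leaves the precision of a single fold unknown and can change how many peaks a list holds. The lowest score was 50 (p of 1e-05) and the lowest fold 2. In NAT10 replicate 2, 2 lines were empty, and in vector replicate 2, 3 lines, all skipped.

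Starts counted from 0 in the files are printed counting from 1. Gene symbols are those of the files; spans and upstream sequences are from RefSeq (GRCh38.p14), matched by gene identifier and symbol. Of the 9 genes with a peak, 2 had an upstream sequence to print. Peaks overlapping by at least 1 base formed a position. Peaks per gene were tested for all 10870 genes by an exact two-sided permutation test over the 20 divisions of the 6 lists with Benjamini-Hochberg adjustment and a threshold of 0.05, after a check on simulated data (Python 3.11.15, pandas 2.3.3, NumPy 2.4.6, SciPy 1.17.1). The members and gene lists were chosen with earlier results of these data known. The text names all 10 members, every other keratin with a peak, at most 4 linker and 4 other filament genes (most lists, then highest fold), and the 5 genes most like KRT75. Alternatives were a fold of at least 4, a score of at least 100, lists of equal length, each list left out, genes by RefSeq span (without strand, which the files lack), lines as deposited, a replicate block, and an overlap of 50 percent of both peaks.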

Additional observations from a re-analysis of the deposited data

How the results depend on the processing

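The tested count was 0 genes under every alternative run, which says nothing about stability, since no alternative could reach the threshold. The paired test with a replicate block called 0 of 10870 genes, and its smallest possible p is 0.25. Deviations of same-numbered lists from their group means, over genes, had correlations of 0.000406, -0.0663 and -0.0649. For lists with unlike numbers the correlations ran from -0.00549 to 0.0675. Deviations within a group sum to 0, so these values cannot decide whether the lists are paired. The 29 genes listed in all 3 overexpression and in 0 control lists became 75, 59 and 182 without NAT10 replicates 1, 2 and 3, and 35, 144 and 62 without vector replicates 1, 2 and 3. With the shortest and the longest list both left out, an alternative chosen after seeing the data, they became 725. Each of these alternatives required fewer lists and also changed which lists were used, and the cause of the changes was not tested. Keratins in more overexpression lists fell to 3, against 5, with a fold of at least 4 and with lists of equal length. With 1 list left out, the groups were compared by the share of their lists with a peak, not by the number. Keratins with the larger share in overexpression then ranged from 4 to 6. Keratins in more control lists rose to 4, against 3, with a fold of at least 4, and so outnumbered the 3 in more overexpression lists. Their number fell to 1 with lists of equal length and with the shortest and longest list left out. By share, it ranged from 3 to 4 with 1 list left out. Positions found in 2 or more lists fell to 3, against 9, with a fold of at least 4; the cause was not tested. Of 120 values of single keratins under the alternatives, 61 equalled the reported value, 53 differed from it by at most the SD between lists and 6 by more. KRT80 turned sign without vector replicate 3 (0.167, against -0.667), which is within that SD. In the 6, the mean peaks per list, overexpression minus control, became 0.333 and 0.667, against 1, for KRT75 (fold of at least 4, equal length), 0 for KRT14 under both, 0 for KRT6B with equal length, and 1 for KRT16 without the shortest and longest list. KRT15, with no peak in any list, stayed at 0 under every alternative, so its values among the 120 could not move. For KRT75 the SD between lists was 0, so any change counted as more. Depth limits what the absence of a peak can show.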

Other observations

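Some peaks on different keratin genes had exactly the same length. How often lengths coincide among peaks on other genes was not counted, so the matches are a description only. Peaks of 126 bases were listed on KRT16, KRT6B and KRT9, peaks of 221 bases on KRT36 and KRT80, peaks of 165 bases on KRT4 and KRT80, and peaks of 108 bases on KRT71 and KRT74. The KRT71 and KRT74 peaks were both in NAT10 replicate 2, with folds of 6.39 and 6.84. Of the peaks of 126 bases, that on KRT9 was in NAT10 replicate 3, that on KRT16 in vector replicate 2, and that on KRT6B in vector replicates 1 and 2.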
